A study of Mus musculus with 4 samples.

Results

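The genes described here are the enzymes that make cholesterol and the regulators that set how much of it is made: 26 genes chosen by name from the pathway, of which 25 had a row among the 22138 genes of the deposited table. Msmo1 was listed there under its older symbol, Sc4mol, and Hmgcs1, which encodes HMG-CoA synthase, was not analysed here. RNA was sequenced from TT2, a line of female mouse embryonic stem cells from a C57BL/6xCBA cross, whose stage is labelled as preimplantation embryo, kept feeder-free in serum plus LIF, the cytokine that maintains their undifferentiated state. The controls received control siRNA (2 libraries) and the knockdown received siRNA against Hnrnpk (2 libraries), each given at 100 nM and again 24 hours later at 50 nM, with harvest about 72 hours after the second dose. By the series' title, the product of Hnrnpk, a protein that binds RNA and DNA, is linked to silencing by SETDB1, and the comparison asked which transcripts differed once Hnrnpk was depleted. All cells came from 1 line, and no wild-type library without siRNA was among the 4 samples.

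Cholesterol is built from acetyl-CoA. The mevalonate steps make small isoprenoid units, which are joined into farnesyl diphosphate, then into squalene, which is closed into lanosterol and trimmed to cholesterol. The pathway is controlled by the SREBP transcription factors, which stay in the membrane of the endoplasmic reticulum, bound to SCAP and held there by the INSIG proteins, while sterols are plentiful. When sterols run low, SCAP carries the SREBPs to the Golgi, where they are cut, and the released part enters the nucleus and activates genes of the pathway. Insig1 is itself a target of the SREBPs in most cell types.

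Values were RPKM, reads scaled to transcript length and library size, which puts genes and libraries on a common scale only roughly. The summed RPKM of the libraries ranged from 359659 to 390467, and the main fit applied no further scaling. Levels of genes that share sequence with others, given below, are uncertain. Changes were tested on log2(RPKM + 0.5) with limma over the 12486 genes whose mean reached 0.5 RPKM, and a gene was called when its p, adjusted over all of them by the Benjamini-Hochberg method, was below 0.05. Changes are given as knockdown minus control throughout. Hnrnpk stood at 236 and 226 RPKM in the controls and at 68.0 and 70.5 RPKM in the knockdown, where it fell by 1.73 on the log2 scale (adjusted p = 6.59e-08). Relative to control replicate 1, the depth of the other libraries was estimated from low values at 0.982, 0.891 and 0.882. These were the commonest ratios, held by 108 of 2712, 66 of 2354 and 80 of 2376 genes compared. The 4 libraries were not equally alike: the correlation across the genes tested was 0.997 within the control pair and 0.999 within the Hnrnpk siRNA pair.

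All 25 cholesterol genes were expressed, from 3.95 RPKM for Tm7sf2 to 123 RPKM for Fdps in single libraries, and all 25 passed the filter on low values. After Hnrnpk siRNA, 11 were called lower and 5 higher, and 9 were not called. The falls were led by Dhcr7, Fdps, Tm7sf2, Mvk and Srebf1, and the largest rise was that of Scap. Over all genes tested, 67.2% were called, against 16 of 25 (64%) here, so the share of cholesterol genes called was close to that of genes at large. Of the 25, 44% were called lower where 35.0% of all genes tested were, and 20% were called higher where 32.2% were. The excess of falls depended on control replicate 1, as given below. The knockdown libraries lay clear of the controls for 20 of the 25 genes (80%; 84.7% of all genes tested), below them for 14 (56%; 43.5%) and above them for 6 (24%; 41.2%). The median log2 change of the 25 was -0.20, and that of all genes tested was -0.015. For falls of at least 0.5 on the log2 scale the share was 20%, or 5 of 25, near the 18.0% of all genes tested. For rises of that size it was 4%, or 1 of 25, and 13.7% of all genes tested. The summed RPKM of the 25 genes was 868 and 743 in the controls and 653 and 693 in the knockdown. These are bulk measurements, in which fewer cells expressing a gene and less of its RNA per cell cannot be told apart.

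**Figure D1:**
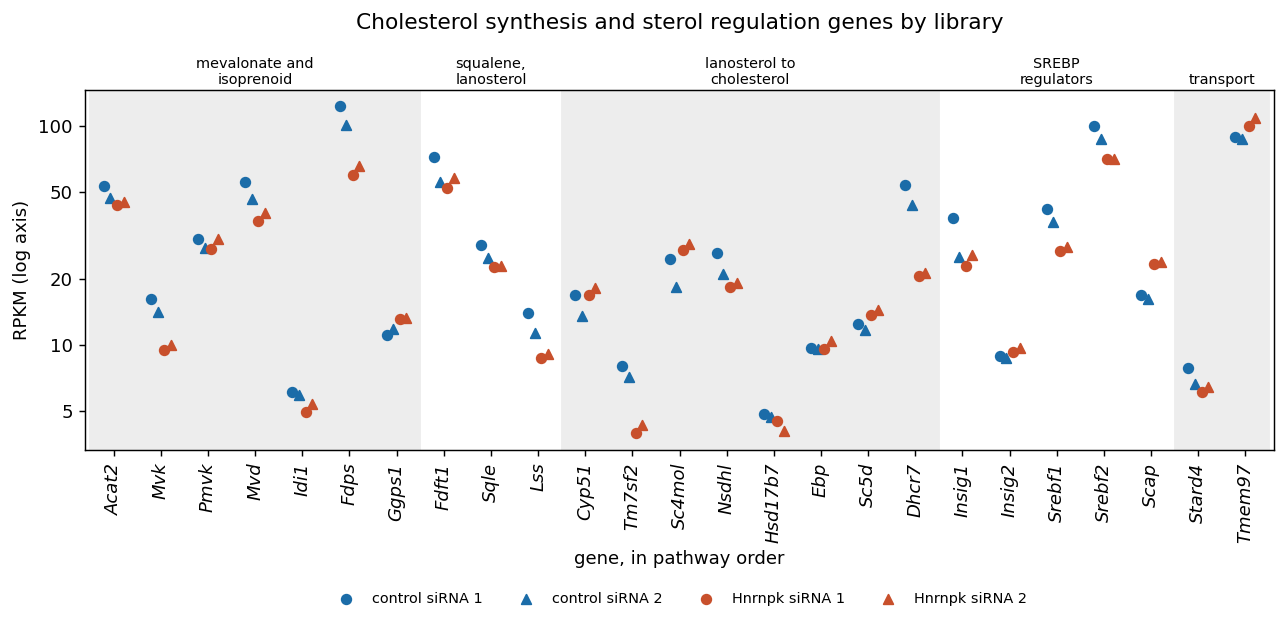
RPKM of the 25 cholesterol synthesis and sterol regulation genes in each library (log axis), in pathway order (Msmo1 as Sc4mol), with control siRNA in blue, Hnrnpk siRNA in orange, replicate 1 as circles and replicate 2 as triangles. Dhcr7, Fdps, Tm7sf2 and Mvk lie well below the control libraries, Scap lies above them, and control replicate 1 sits above control replicate 2 for 24 of the 25 genes.

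The control libraries differed from each other in these genes, and this bears on every change given here. Control replicate 1 lay above control replicate 2 for 24 of the 25 cholesterol genes, Ggps1 being the exception, whereas 57.3% of all genes tested did so. The median difference between the control libraries was 0.19 on the log2 scale for the 25 genes and 0.023 for all genes tested. It was largest for Insig1, at 0.57, a difference that only 0.360% of the genes tested exceeded, followed by Msmo1 at 0.41 and Fdft1 at 0.38. Between the Hnrnpk siRNA libraries the order was the other way: replicate 1 lay above replicate 2 in 2 of the 25, Hsd17b7 and Srebf2, with a median difference of -0.068 against -0.020 over all genes tested. What set the libraries apart was not tested. Without control replicate 1 the median log2 change of the 25 was -0.084, and that of all genes tested was -0.0032. The share called lower was then close to that of genes at large, but the share called higher stayed below it. Without control replicate 2 the medians were -0.31 and -0.024. The share called lower was then above that of genes at large, and the share called higher was below it. Neither fit held a replicate of the control library that was left. Of the 16 calls, those of Mvk, Fdps, Tm7sf2, Dhcr7, Srebf1 and Scap held in all 13 alternative analyses, including those without either control library, with adjusted p-values up to 0.0446.

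**Figure D2:**
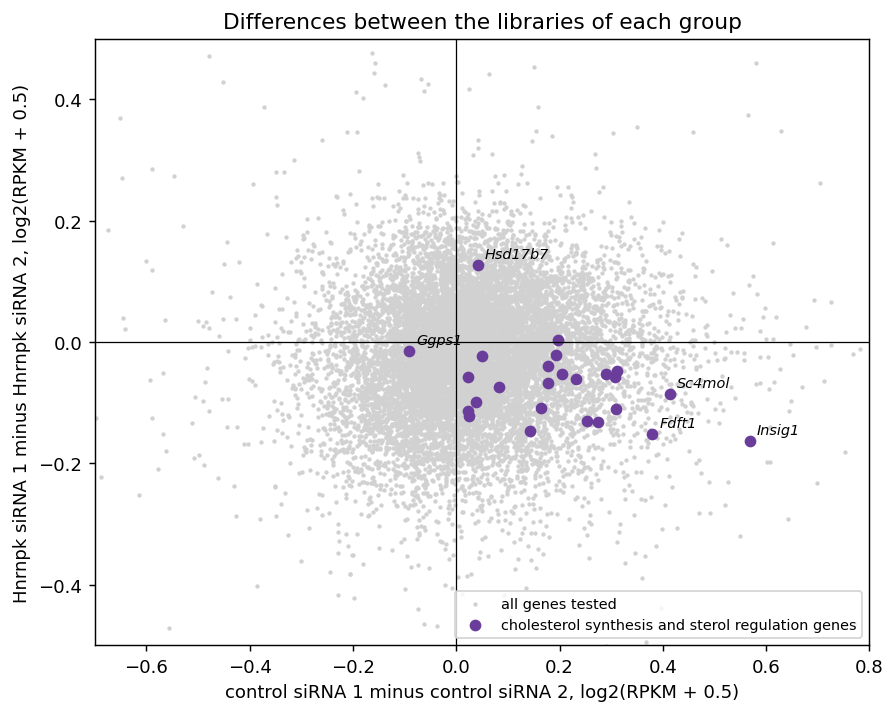
Differences between the 2 libraries of each group on the log2(RPKM + 0.5) scale, for all genes tested (grey) and the 25 cholesterol genes (purple), with control siRNA on the x axis and Hnrnpk siRNA on the y axis. All cholesterol genes but Ggps1 lie to the right of 0, with Insig1 farthest at 0.57 and Msmo1 (plotted as Sc4mol) at 0.41, and mostly just below 0 on the y axis, with Hsd17b7 the clearest exception. The axes leave out the most extreme genes.

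Among the enzymes from acetyl-CoA to the isoprenoid diphosphates, 4 of the 7 with values fell, 1 rose and 2 were not called. Over all genes tested, 35.0% were called lower and 32.2% higher. The summed RPKM of these enzymes went from 295 and 254 to 195 and 210. The largest fall was that of Fdps, which makes farnesyl diphosphate, the last intermediate shared by sterols and protein prenylation. Fdps (ENSMUSG00000059743, GRCm38 chromosome 3, 89093588 to 89101959, minus strand) had 123 and 101 RPKM in the controls and 59.9 and 65.7 RPKM in the knockdown. Both libraries of the knockdown lay far below both controls, and the log2 change was -0.82 (SE 0.0918, adjusted p = 3.87e-05 by limma). In all, 91.4% of its longest coding transcript matched 6 other genes at 95% identity or more, among them Gm43738 and Gm8163, which have no values here, and the sources used here do not say how reads from such copies were counted.

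Mvk, the kinase that phosphorylates mevalonate, was at 16.2 and 14.2 RPKM in the controls and at 9.54 and 10.02 RPKM in the knockdown. The groups did not overlap, and its log2 change was -0.61 (SE 0.0800, adjusted p = 0.000115 by limma). Mvd, the decarboxylase that yields isopentenyl diphosphate, fell from 55.2 and 46.3 RPKM to 36.6 and 40.2 RPKM, a log2 change of -0.39 (SE 0.0884, adjusted p = 0.00313). The call of Mvd was lost when no filter was set on low values (adjusted p = 0.113), and with each library's trend on GC content removed its change was -0.25.

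Pmvk, the kinase acting between Mvk and Mvd, gave no such difference. Its levels were 30.6 and 27.7 RPKM in the controls and 27.5 and 30.5 RPKM in the knockdown, so the groups overlapped, and the log2 change of -0.0073 (SE 0.0768, adjusted p = 0.939) was not called. Its sign turned in 4 of the 13 alternatives. The neighbouring steps of the chain thus had unlike values, with Mvk and Mvd called lower and Pmvk near 0.

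Acat2, the cytosolic thiolase that joins acetyl-CoA units at the head of the pathway, was at 53.1 and 46.9 RPKM in the controls and 43.6 and 44.8 RPKM in the knockdown (log2 change -0.17, SE 0.0725, adjusted p = 0.0590). Both knockdown libraries were lower, but the gene was not called. It was called without control replicate 2 (-0.26, adjusted p = 0.00917) and under quantile normalization (-0.22, adjusted p = 0.0204), as well as with GC trends removed and with replicate number as a block. Without control replicate 1 the change was -0.084 (adjusted p = 0.365). A total of 65.6% of its transcript was shared with Acat3 and with Tcp1, so the value is uncertain. Acat3 fell from 3.69 and 3.05 RPKM to 2.45 and 2.61 RPKM (log2 change -0.35, adjusted p = 0.0119), and the abundant Tcp1, which shares 19.8% of the Acat2 transcript, fell from 232 and 243 RPKM to 192 and 194 RPKM (log2 change -0.29, adjusted p = 0.00266).

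Idi1, which interconverts the isopentenyl and dimethylallyl units, was the least expressed enzyme of this stretch. It went from 6.10 and 5.93 RPKM to 4.97 and 5.36 RPKM (log2 change -0.20, SE 0.0792, adjusted p = 0.0444). This small call was lost in 6 of the 13 alternatives, among them those without control replicate 1, without knockdown replicate 1 and without knockdown replicate 2. Of its transcript, 33.3% was shared with other genes. Ggps1 makes geranylgeranyl diphosphate, used for prenylation and not for sterols, and it was the only gene of the stretch that rose. Its levels were 11.1 and 11.8 RPKM in the controls and 13.2 and 13.3 RPKM in the knockdown (log2 change 0.20, SE 0.0701, adjusted p = 0.0272). Its call was lost in 5 alternatives, and with GC trends removed the change was 0.058. Of the transcript of Ggps1, 27.3% was shared with other genes, among them Gm5630 (21.3%), which has no value here.

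The 3 enzymes that lead from farnesyl diphosphate to lanosterol had log2 changes from -0.48 to -0.20, with 2 called lower (35.0% of all genes tested). Lss closes squalene epoxide into the ring system of lanosterol. It had 14.04 and 11.4 RPKM in the controls and 8.74 and 9.08 RPKM in the knockdown, a log2 change of -0.48 (SE 0.0962, adjusted p = 0.00155 by limma), which was lost when no filter was set (adjusted p = 0.0853). Sqle, the monooxygenase that makes that epoxide and a slow step of the pathway, fell from 28.7 and 25.01 RPKM to 22.7 and 23.01 RPKM (log2 change -0.23, SE 0.0760, adjusted p = 0.0243). Without control replicate 1 the change of Sqle was -0.13 and was not called (adjusted p = 0.158). Nor was it called without knockdown replicate 1 or without knockdown replicate 2.

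Fdft1, squalene synthase, commits farnesyl diphosphate to sterols. Its libraries stood at 72.2 and 55.4 RPKM in the controls and at 52.1 and 57.9 RPKM in the knockdown, and the groups overlapped because control replicate 2 lay between the knockdown libraries. The log2 change of -0.20 (SE 0.111, adjusted p = 0.133) was not called, but was -0.39 and called without control replicate 2 (adjusted p = 0.0011) and -0.012 without control replicate 1. In the fit with replicate number as a block it was also called (adjusted p = 0.0340). Of the transcript of Fdft1, 54.7% was shared with other genes, among them Gm6781 (33.7%), which has no value here. Exons of Ctsb on the other strand lie over 18.3% of the exonic bases of Fdft1. Ctsb rose, from 36.9 and 32.9 RPKM to 51.6 and 55.2 RPKM (log2 change 0.61, adjusted p = 6.83e-05). The sources used here do not say whether the counting used strand.

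In the last stretch, from lanosterol to cholesterol, 3 of 8 enzymes were called lower, 2 higher and 3 not called. Calls in both directions were also common among all genes tested, with 35.0% lower and 32.2% higher. The median log2 change of the stretch was -0.042. Dhcr7, the reductase of the last step, had the largest change of the 25 cholesterol genes. Dhcr7 (ENSMUSG00000058454, GRCm38 chromosome 7, 143823145 to 143848410, plus strand) was at 54.0 and 43.4 RPKM in the controls and at 20.7 and 21.4 RPKM in the knockdown. Both knockdown libraries were below 50% of either control library. The log2 change was -1.18 (SE 0.0944, adjusted p = 5.04e-06 by limma), and 2.40% of the genes tested had a lower one.

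Tm7sf2, a sterol reductase that acts on the lanosterol skeleton after its first demethylation, was the next largest fall of the stretch. It went from 8.05 and 7.13 RPKM to 3.95 and 4.30 RPKM (log2 change -0.80, SE 0.0879, adjusted p = 3.40e-05), with no overlap between groups. Lbr, the lamin B receptor, whose membrane domain has the same reductase activity, was listed at 125 and 117 RPKM in the controls and at 84.0 and 80.9 RPKM in the knockdown, and also fell (log2 change -0.55, adjusted p = 5.64e-05). Lbr thus stood far above Tm7sf2 in both groups. Nsdhl, a dehydrogenase that removes methyl groups from the ring, fell from 26.2 and 21.1 RPKM to 18.4 and 19.2 RPKM (log2 change -0.32, SE 0.0953, adjusted p = 0.0144). Its change was -0.16 without control replicate 1, where it was not called (adjusted p = 0.0824), and the call was also lost without knockdown replicate 1.

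Msmo1, the oxidase that starts the same demethylation, moved the other way. It had 24.6 and 18.3 RPKM in the controls and 27.2 and 28.9 RPKM in the knockdown. Both knockdown libraries were higher, with a log2 change of 0.39 (SE 0.115, adjusted p = 0.0125). The rise rested on control replicate 2, without which it was 0.19 and not called (adjusted p = 0.0506). Sc5d, a sterol desaturase, went from 12.5 and 11.8 RPKM to 13.7 and 14.5 RPKM (log2 change 0.21, SE 0.0710, adjusted p = 0.0235), and its call was lost in 5 alternatives, among them those without control replicate 2, without knockdown replicate 1 and without knockdown replicate 2; it was 0.11 with GC trends removed.

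The remaining enzymes of the stretch were not called. Cyp51, the demethylase that acts on lanosterol, had 16.9 and 13.6 RPKM in the controls and 16.9 and 18.3 RPKM in the knockdown (log2 change 0.21, SE 0.0991, adjusted p = 0.0914). The groups overlapped through control replicate 1, and without that library the change was 0.36 and called (adjusted p = 0.0015); it was 0.051 without control replicate 2. Cyp51 was also called with replicate number as a block (adjusted p = 0.0321). Hsd17b7, the sterol ketone reductase, was at 4.83 and 4.68 RPKM and then at 4.50 and 4.07 RPKM (log2 change -0.14, SE 0.0836, adjusted p = 0.171), and was called only with GC trends removed (-0.22, adjusted p = 0.0326). The change was -0.074 without knockdown replicate 2 and -0.062 under quantile normalization. Ebp, the isomerase that shifts a ring double bond, stood at 9.73 and 9.55 RPKM and at 9.59 and 10.5 RPKM, with overlapping groups and a log2 change of 0.053 (SE 0.0748, adjusted p = 0.547).

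**Figure D3:**
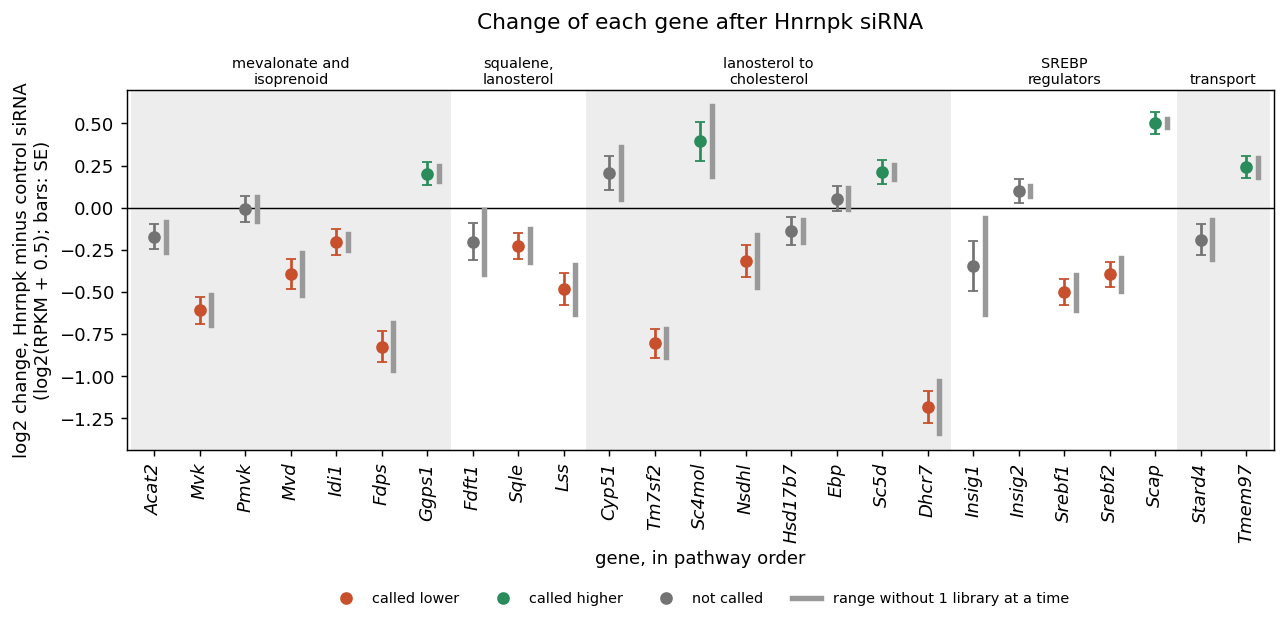
Log2 change of each gene in the knockdown on the log2(RPKM + 0.5) scale, in pathway order, with SE as bars, Msmo1 shown as Sc4mol, and called falls in orange, called rises in green and genes not called in grey. The thick grey lines give the range when each library is left out in turn. They are widest for Insig1 and Msmo1 and include 0 only for Pmvk and Ebp. The largest change was that of Dhcr7, at -1.18.

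The SREBP regulators did not all move the same way. Srebf1 and Srebf2, which encode the transcription factors, fell, and Scap, which encodes their escort, rose. Neither Insig1 nor Insig2 was called, though the change of Insig1 (-0.35) was near that of Srebf2 (-0.39). Srebf2 encodes the form known chiefly for the cholesterol genes. It was the second most abundant of the 25 genes in the controls, at 99.6 and 86.9 RPKM, and had 70.8 and 70.6 RPKM in the knockdown (log2 change -0.39, SE 0.0745, adjusted p = 0.00114 by limma). The call of Srebf2 was lost when no filter was set (adjusted p = 0.0605). Srebf1, whose products act more on fatty acid genes, fell from 41.9 and 36.3 RPKM to 26.9 and 27.9 RPKM (log2 change -0.50, SE 0.0774, adjusted p = 0.000313). The groups did not overlap for either gene, and Srebf2 exceeded Srebf1 by 2.38 to 2.63 times in every library.

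Scap (ENSMUSG00000032485, GRCm38 chromosome 9, 110333288 to 110384950, plus strand) was at 16.9 and 16.3 RPKM in the controls and at 23.5 and 23.9 RPKM in the knockdown. Replicates lay close together in both groups, and the log2 change was 0.50 (SE 0.0641, adjusted p = 9.34e-05 by limma). Exons of 5830462I19Rik on the other strand cover 13.2% of the exonic bases of Scap, but that gene was listed at 0 in both controls and at no more than 0.00851 RPKM in the knockdown.

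Insig1 had the widest gap between the controls of the 25 genes. Its control libraries had 37.8 and 25.3 RPKM and its knockdown libraries 22.9 and 25.7 RPKM, so the groups overlapped and control replicate 1 stood alone. The log2 change of -0.35 (SE 0.149, adjusted p = 0.0627) was not called. It was -0.063 without control replicate 1, and it was called without control replicate 2 (-0.63, adjusted p = 1.61e-05), without knockdown replicate 2 (-0.43, adjusted p = 0.0498), under quantile normalization (-0.37, adjusted p = 0.0434) and with replicate number as a block (adjusted p = 0.00328). Insig2, its paralog, was not called, at 8.91 and 8.76 RPKM and at 9.29 and 9.69 RPKM (log2 change 0.097, SE 0.0713, adjusted p = 0.250).

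Of the 2 genes of sterol transport, 1 rose and 1 was not called. Stard4, a cytosolic carrier of cholesterol, was listed at 7.87 and 6.62 RPKM in the controls and at 6.13 and 6.42 RPKM in the knockdown (log2 change -0.19, SE 0.0918, adjusted p = 0.0928), and was not called. It was called without control replicate 2 (-0.31, adjusted p = 0.00492) and with GC trends removed (-0.28, adjusted p = 0.0323), and was -0.073 without control replicate 1. Tmem97, also known as the sigma-2 receptor, is a sterol-responsive membrane protein that binds the lysosomal cholesterol transporter NPC1. It was the third most abundant of the 25 genes, at 88.8 and 87.3 RPKM, and rose to 100.0 and 108 RPKM (log2 change 0.24, SE 0.0652, adjusted p = 0.00893). Without knockdown replicate 2 it was 0.18 and not called (adjusted p = 0.0685). Of the transcript of Tmem97, 38.5% was shared with Gm5809, which has no value here.

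Promoter sequences were available from RefSeq (GRCm38.p6) for 22 of the 26 genes, as windows from 250 bases before to 50 bases after each annotated start, with 30 windows in all; Fdps, Fdft1, Sqle and Stard4 had none. Both strands were searched for 2 motifs: TCACNCCAC, a form of the sterol regulatory element that SREBPs bind, and CCAAT, the box bound by NF-Y, a factor that often acts beside SREBPs. The promoters of 5 genes that stand at the ends of the range of changes are shown, Fdps having no window, with CCAAT or its reverse complement ATTGG in capitals. They are Dhcr7 (chr7:143829964-143830263, plus strand, the window with matches among 3), Tm7sf2 (chr19:6067801-6068100, minus strand) and Mvk (chr5:114444019-114444318, plus strand), which fell, and Msmo1 (chr8:64733529-64733828, minus strand) and Scap (chr9:110333038-110333337, plus strand, the first of 2 overlapping windows), which rose.
Dhcr7: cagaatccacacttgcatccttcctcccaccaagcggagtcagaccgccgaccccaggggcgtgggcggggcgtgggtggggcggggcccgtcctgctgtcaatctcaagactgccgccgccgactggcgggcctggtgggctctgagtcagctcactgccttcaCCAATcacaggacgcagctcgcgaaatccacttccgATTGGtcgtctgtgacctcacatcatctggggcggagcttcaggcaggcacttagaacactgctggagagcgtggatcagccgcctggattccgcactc
Tm7sf2: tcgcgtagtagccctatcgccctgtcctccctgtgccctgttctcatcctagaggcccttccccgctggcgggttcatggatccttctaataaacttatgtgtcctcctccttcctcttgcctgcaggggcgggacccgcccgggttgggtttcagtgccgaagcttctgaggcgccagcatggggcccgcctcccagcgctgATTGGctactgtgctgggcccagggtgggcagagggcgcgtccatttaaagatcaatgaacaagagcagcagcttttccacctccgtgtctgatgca
Mvk: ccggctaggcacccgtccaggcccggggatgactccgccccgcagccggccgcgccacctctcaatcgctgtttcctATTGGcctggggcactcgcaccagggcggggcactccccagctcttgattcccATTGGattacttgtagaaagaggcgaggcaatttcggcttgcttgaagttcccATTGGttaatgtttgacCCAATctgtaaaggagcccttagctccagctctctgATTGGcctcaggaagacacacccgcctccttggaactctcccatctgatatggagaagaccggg
Msmo1: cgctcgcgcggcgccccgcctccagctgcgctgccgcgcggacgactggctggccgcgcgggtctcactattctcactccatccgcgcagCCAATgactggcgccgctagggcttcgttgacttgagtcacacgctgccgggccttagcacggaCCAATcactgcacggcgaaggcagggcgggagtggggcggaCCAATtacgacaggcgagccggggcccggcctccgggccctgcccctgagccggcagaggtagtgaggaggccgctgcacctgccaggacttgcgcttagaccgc
Scap: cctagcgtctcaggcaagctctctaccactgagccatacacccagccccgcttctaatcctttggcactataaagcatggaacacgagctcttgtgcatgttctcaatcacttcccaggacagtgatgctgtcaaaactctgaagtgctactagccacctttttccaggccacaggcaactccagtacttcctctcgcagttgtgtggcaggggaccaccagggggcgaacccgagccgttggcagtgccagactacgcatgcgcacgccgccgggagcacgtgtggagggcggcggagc
The CCAAT letters were present in at least 1 window of 20 of the 22 genes with promoters, all but Acat2 and Scap, and in 41.1% of the 27025 genes of the promoter table. At least 2 copies in 1 window were found for 12 of the 22, against 13.3% of all genes, with 5 in Mvk, 3 in Msmo1, 2 in Dhcr7 and 1 in Tm7sf2. Genes with many copies thus included both fallers and risers. TCACNCCAC was found in 1 of the 22, Hmgcs1, whose expression was not analysed here, and in 1.44% of all genes. It did not overlap any of the 4 CCAAT copies of that window, and other forms of the element were not searched. A match of letters does not show that a factor binds there.

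Genes around the pathway were grouped in 5 further lists, chosen like the 25 genes with results of these data known; they can be read against the 32.2% of all genes tested that were called higher and the 35.0% called lower. Of 27 genes that process SREBPs in the secretory pathway or degrade sterol enzymes in the endoplasmic reticulum, 16 were called higher, 3 lower and 8 neither, with a median log2 change of 0.21. Faf2, which helps extract ubiquitinated proteins from the membrane, rose from 15.9 and 15.3 RPKM to 25.3 and 25.1 RPKM (log2 change 0.67, adjusted p = 1.45e-05 by limma). Sec23a, a coat protein of the vesicles that leave the endoplasmic reticulum, rose from 18.7 and 19.002 RPKM to 30.5 and 28.6 RPKM (log2 change 0.64, adjusted p = 2.34e-05). Rnf145, a ubiquitin ligase of that membrane known to act on SCAP, went the other way, from 23.9 and 24.2 RPKM to 13.5 and 13.8 RPKM (log2 change -0.80, adjusted p = 5.35e-06).

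The isoprenoid branches, which use the diphosphates for ubiquinone, dolichol and prenylated proteins, went both ways, with 8 of 23 genes called higher, 6 lower and 9 neither, and a median log2 change of 0.061. Coq2, which attaches the isoprenoid tail in ubiquinone synthesis, fell from 13.1 and 12.4 RPKM to 5.78 and 6.58 RPKM (log2 change -0.99, adjusted p = 6.56e-06). Chml, a Rab escort protein for prenylation, fell from 4.86 and 4.31 RPKM to 2.61 and 2.28 RPKM (log2 change -0.79, adjusted p = 6.82e-05).

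Genes of sterol uptake, storage and transport had 6 of 21 tested members called higher, 5 lower and 10 neither (median -0.036); 4 further members were below the filter. Npc2, which hands cholesterol over inside lysosomes, rose from 32.2 and 27.8 RPKM to 61.2 and 66.8 RPKM (log2 change 1.08, adjusted p = 3.56e-06). Soat2, which esterifies cholesterol for storage, fell from 2.40 and 2.57 RPKM to 1.03 and 0.948 RPKM (log2 change -1.004, adjusted p = 1.12e-05). Lrp8, a receptor for apolipoprotein E, fell from 1.96 and 1.504 RPKM to 0.626 and 0.633 RPKM (log2 change -0.98, adjusted p = 5.13e-05).

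Among genes of sterol efflux and of LXR, the nuclear receptor for oxysterols, 10 of 19 tested were called lower, 5 higher and 4 neither (median -0.17). Abca2, a lipid transporter of endosomes, fell from 10.8 and 10.2 RPKM to 4.22 and 4.43 RPKM (log2 change -1.19, adjusted p = 1.45e-06). Apoe, a lipoprotein component that carries cholesterol out of cells, rose from 222 and 194 RPKM to 413 and 449 RPKM (log2 change 1.05, adjusted p = 4.50e-06), and its genomic neighbour Apoc1 rose from 11.8 and 10.1 RPKM to 18.0 and 18.2 RPKM (log2 change 0.71, adjusted p = 5.22e-05). In the list of related enzymes and paralogs, 4 of 9 tested were called lower, 2 higher and 3 neither (median -0.11). Beside Lbr these included Cyb5b, an electron carrier of the outer mitochondrial membrane, at 102 and 108 RPKM and then 67.5 and 69.5 RPKM, and Sec14l2, a lipid-binding protein, at 4.21 and 3.95 RPKM and then 2.18 and 2.44 RPKM, with log2 changes of -0.62 and -0.70.

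**Figure D4:**
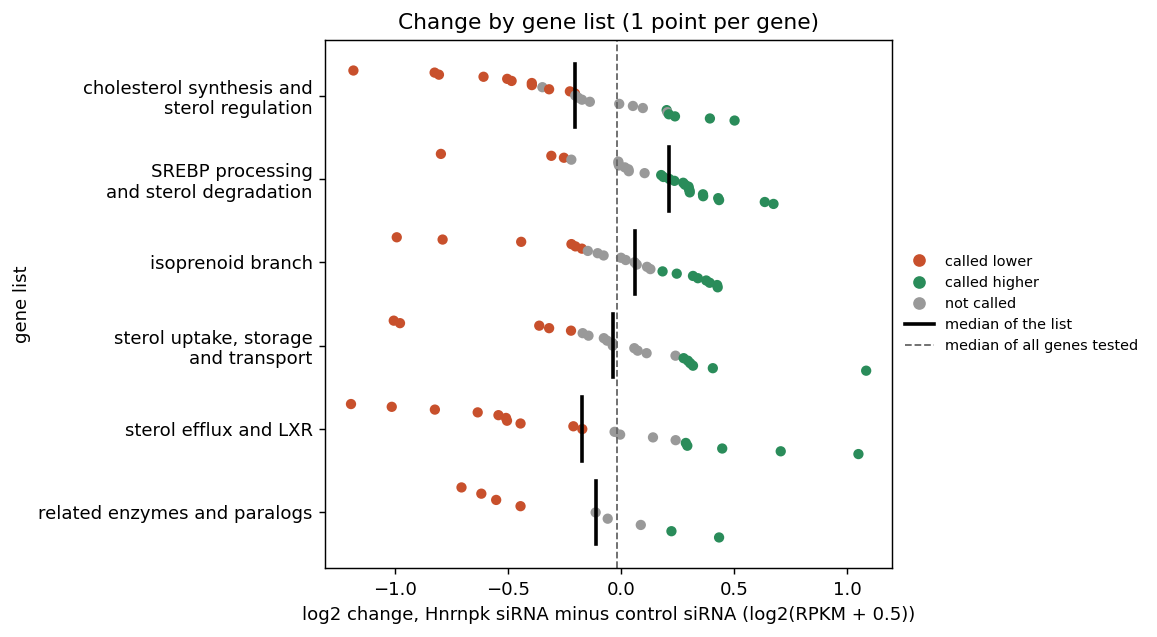
Log2 change in the knockdown of each tested gene in the cholesterol list and in 5 further lists (log2(RPKM + 0.5) scale), coloured by call, with the median of each list as a black bar and that of all genes tested as a dashed line. The cholesterol list has its median at -0.20 and the list of SREBP processing and sterol degradation at 0.21.

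All 8 pluripotency markers stood at 94.2 RPKM or more in every library, though not at the same level in both groups: 2 were called higher, 2 lower and 4 neither. For these and the marker lists that follow, the shares over all genes tested were 32.2% called higher and 35.0% called lower. Nanog and Dppa5a rose (log2 changes 0.82 and 0.83), and Sox2 and Utf1 fell (-0.53 and -0.29). Pou5f1 had 287 and 301 RPKM in the controls and 245 and 286 RPKM in the knockdown (log2 change -0.15, adjusted p = 0.137). Markers of other cell states moved with the knockdown. The summed RPKM of 8 primitive endoderm markers was 8.19 to 8.63 in the controls and 33.4 to 34.8 in the knockdown, with 5 of 6 tested called higher, among them Gata6 and Dab2, which had the lowest p. For 8 trophectoderm markers the summed RPKM was 30.6 to 36.1 and then 68.7 to 73.3. Of these, 5 of 5 tested were called higher, among them Gata3 and Hand1, again those of lowest p. Below the filter, Cdx2 and Krt7 were listed higher in the knockdown and Elf5 lower. For the 6 of 8 two-cell stage markers with values the sum was 0.710 to 0.787 and then 39.4 to 46.3. All 6 were called higher, Zscan4c and Gm8300 among them. These 6, and Pdgfra among the endoderm markers, were below 0.5 RPKM in both controls. They passed the filter only through the knockdown, so a call of higher was nearly fixed in advance. Fibroblast markers summed to 8.36 to 9.75 and then 4.27 to 4.48, of which Thy1 and Col1a1 were called lower and the other 6 stayed below the filter. No marker in these lists was at 0 in any library. The part of these cell states in the changes of the cholesterol genes was not tested.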

How the data were processed

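RNA-seq values for 4 libraries (control siRNA, n = 2; Hnrnpk siRNA, n = 2) were RPKM, which the authors deposited for each gene and library in 1 table. BWA, SAMtools and the build mm9 are named, per the submitters' processing notes, without versions or roles; the sources used here do not give the annotation, the counting tool or how reads matching several places were treated. The labels call the RNA both depleted of ribosomal RNA and selected for poly(A). The series' design text calls the libraries biological replicates without naming separate cultures; where they were not, p-values measure only the spread between these samples, which may be technical.

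The 12486 of 22138 genes whose mean reached 0.5 RPKM were analysed as log2(RPKM + 0.5) with limma 3.58.1 in R 4.3.3 (mean-variance trend, two-sided, Benjamini-Hochberg adjustment). Changes on this scale understate those of low genes. On simulated data with 200 changed genes and independent noise, the procedure recovered 88% of changes of 0.5, with 10 false calls among 198. That simulation held no difference shared by many genes of 1 library, and far fewer changed genes than the 67.2% called here. With 2 libraries a group, an exact permutation test of 1 gene cannot give a p below 0.333. Low values gave the relative depth of the libraries as the commonest ratio of a gene's values in 2 libraries, among values below 0.1 RPKM; absolute depth is unknown. Alternatives were an added 0.1 or 1 RPKM, a filter of 1 RPKM or none, median-of-ratios scaling, quantile normalization, no variance trend, replicate number as a block, GC trends removed (loess on the longest transcript, GC content known for 98.3% of genes tested) and each library left out in turn. Gene positions came from GENCODE M21 (GRCm38) by Ensembl identifier, which may differ from the annotation behind the values; 92.8% of identifiers matched. Transcripts of the cholesterol genes were compared with all M21 transcripts with BLAST 2.17.0, counting matches of 100 bases or longer at 95% identity.

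The cholesterol genes and the other lists were chosen with earlier results of these data known. The text names Hnrnpk, all cholesterol genes, up to 4 genes of each pathway list called with a log2 change past 0.5 in either direction, lowest p first, Pou5f1, and up to 2 called genes of each other marker list. Genes that share transcript sequence or exons with a cholesterol gene (Acat3, Tcp1, Ctsb, 5830462I19Rik) and the called pluripotency markers (Nanog, Dppa5a, Sox2, Utf1) are named besides, and are not among the results compared across the alternatives. A gene that the rule picks is not reported here.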

Additional observations from a re-analysis of the deposited data

How the results depend on the processing

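Of the 16 cholesterol genes called, 6 (Mvk, Fdps, Tm7sf2, Dhcr7, Srebf1 and Scap) held in all 13 alternatives, 3 (Mvd, Lss and Srebf2) were lost only when no filter was set, and 7 were lost in another alternative. Of the 9 not called, 6 were called in some alternative. With no filter, which adds 9652 genes, 3324 of them at 0 in every library, 1 cholesterol gene was called higher and 5 lower. These were 4% and 20% of the 25, against 17.1% and 17% of all genes tested in that setting. With GC trends removed 3 were called higher and 14 lower, or 12% and 56% against 31.3% and 36% of all genes tested. With no filter the log2 changes of the cholesterol genes were those of the main fit (median -0.20 in both), and only the p-values moved. With GC trends removed the changes themselves moved, to a median of -0.25. The cause of these shifts was not tested. Leaving out 1 library at a time gave a median log2 change of -0.31 to -0.084 for the cholesterol genes and of -0.024 to -0.0030 for all genes tested. The sign of Pmvk, which was not called, turned with median-of-ratios scaling (0.0093), with GC trends removed (0.088), without control replicate 1 (0.064) and without Hnrnpk siRNA replicate 1 (0.066), with a range of -0.080 to 0.066 when 1 library was left out, and that of Ebp, also not called, without Hnrnpk siRNA replicate 2 (-0.0078, range -0.0078 to 0.11). The labels give both groups replicate numbers 1 and 2 but no shared origin, and the differences between replicates of the groups correlated at 0.027 across genes, so the numbers were not taken to pair the samples. With replicate number as a block, 6 cholesterol genes were called higher and 14 lower (24% and 56%), against 4162 and 4460 of all genes tested (33.3% and 35.7%). Outside the cholesterol list, the called genes picked by the naming rule held in every alternative run. All but Hnrnpk were picked for a low p in these same data, so this was close to fixed by the choice.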

Other observations

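Ratios between cholesterol genes within a library, chosen after their values were seen and given without a test, moved apart where one gene rose and another fell. Msmo1 stood at 0.455 and 0.423 of the RPKM of Dhcr7 in the control libraries and at 1.32 and 1.35 of it in the Hnrnpk siRNA libraries, so the earlier enzyme of the sterol stretch passed the last one in level. Scap stood at 0.169 and 0.187 of Srebf2 after control siRNA and at 0.332 and 0.338 after Hnrnpk siRNA. Insig1 exceeded Insig2 by 4.24 and 2.89 times in the control libraries and by 2.46 and 2.65 times after Hnrnpk siRNA, the spread between the control libraries being larger than the gap between control replicate 2 and the knockdown.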
